A study of Mus musculus with 7 samples.

Results

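The 300 autosomal regions that ranked highest by fold enrichment over 7 ATAC-seq libraries of mouse muscle stem cells (MuSCs) are described here. The deposited broad peaks of these libraries were merged wherever they shared at least 1 bp, which gave 93201 regions on chromosomes 1 to 19, and 52187 of them (56.0%) held a peak in all 7 libraries. In each library these shared regions were ranked by their highest fold enrichment, and the 300 with the highest mean percentile, 0.575% of the shared regions, were taken. The members were chosen by their fold enrichment in these same libraries, so their fold values are given as a description without a test. The set carried the working label of top enriched regions and likely artifacts, so short peaks away from promoters were separated from the others. No list of artifact-prone regions was used here, and whether any member is an artifact was not tested.

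MuSCs are the PAX7-expressing stem cells of skeletal muscle, which rest under the basal lamina of the myofiber and rebuild it after injury. The study sorted 5000 MuSCs per library (ITGA7+ and negative for CD31, CD45, CD11b and SCA1) from the hindlimbs of male mice aged 5 to 6 weeks on a C57BL/6 background. There were 4 Nedd4L-cKO libraries, from Nedd4L fl/fl Pax7 cre/+ mice, and 3 Nedd4L-WT libraries. Nedd4l encodes an E3 ubiquitin ligase, and a Cre driven by Pax7 removes an exon of its catalytic domain while transcription goes on. Myofibers that form from Pax7-expressing cells inherit the deletion, so it is not limited to the stem cells. The labels do not say whether the Nedd4L-WT mice carried Cre or floxed alleles.

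In ATAC-seq the Tn5 transposase cuts and tags accessible DNA, so that tags pile up at active promoters and enhancers. MACS2 reports for each peak a pileup, the coverage by tags extended around the cut. It also reports a fold enrichment, the pileup divided by a local background taken from the same library, with 1 added to both. For broad peaks such as these, pileup and fold are means over the called peak and not values at a summit. A high fold can thus come with a moderate pileup where the surrounding DNA is empty, and a broad open promoter adds to its own background. After 1 tag per position and strand was kept, the libraries held 14.4 to 20.1 M tags (M, 1000000), and pileups were divided by the M tags kept, which gives the scaled pileup. Nedd4L-WT replicate 3 was the only library from lane 2.

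The cell type of the labels was checked at promoters. All 10 MuSC genes examined, among them Pax7, Myf5, Myod1 and Cdh15, had a peak within 1 kb of the transcription start site (TSS) in all 7 libraries. Of 5 immune genes, 0 had one in any library. Kdr and Tek of 4 endothelial genes and Dpt and Col15a1 of 4 fibro-adipogenic genes had a peak in all 7. So did Cspg4 and Acta2 of 3 pericyte genes. Of the same lists, Pecam1, Cdh5, Pdgfra and Ly6a had none and Rgs5 had one in 1 library. Each of these lists was thus split.

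The members fell into 3 classes. Of the 300 regions, 183 (61.0%) overlapped the TSS ± 1 kb of a protein-coding gene, 93 lay away from promoters and were longer than 600 bp, and 24 (8.0%) lay away from promoters with a median peak length of at most 600 bp. A short peak at a promoter was found for 0 members. Among all shared regions 23.9% were promoters of any length, 61.0% were longer and away from promoters, and 15.1% were short and away from promoters. Short promoters, counted within the first share, made up 0.640%.

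Sequences are shown for promoters only, since no genome sequence was at hand for the members away from promoters. The RefSeq promoter table on GRCm38.p6, the assembly also called mm10, holds 250 bp before to 50 bp after each start, and it had a window for 155 of the 183 promoter members. The windows of Zfp317, Pex7, Intu and Alpk1, from the 8 promoter members with the highest ranks, are printed first, and Mfn1 was added after its values were seen because it holds the letters of an ETS site. Capitals mark the letters of known binding motifs on either strand. The TATA box reads TATAAA, and NFY binds CCAAT. A GC box, GGGCGG, is bound by Sp factors. ETS factors bind around CCGGAAG. The windows lie at chr9:19621841-19622140 (plus strand) for Zfp317, chr10:19907625-19907924 (minus strand) for Pex7, chr3:40540517-40540816 (plus strand) for Intu, chr3:127780478-127780777 (minus strand) for Alpk1 and chr3:32529232-32529531 (plus strand) for Mfn1.
Zfp317: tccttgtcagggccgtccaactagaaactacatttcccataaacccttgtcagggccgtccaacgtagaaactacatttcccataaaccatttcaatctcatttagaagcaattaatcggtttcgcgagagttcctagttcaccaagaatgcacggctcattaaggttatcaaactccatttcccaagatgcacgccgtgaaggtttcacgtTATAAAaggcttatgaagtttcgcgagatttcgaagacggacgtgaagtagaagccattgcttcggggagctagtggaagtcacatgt
Pex7: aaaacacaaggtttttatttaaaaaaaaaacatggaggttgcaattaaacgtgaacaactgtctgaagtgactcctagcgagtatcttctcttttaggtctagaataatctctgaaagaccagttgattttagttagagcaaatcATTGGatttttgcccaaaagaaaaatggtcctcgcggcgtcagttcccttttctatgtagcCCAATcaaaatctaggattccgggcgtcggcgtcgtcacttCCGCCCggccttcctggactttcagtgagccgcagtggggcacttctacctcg
Intu: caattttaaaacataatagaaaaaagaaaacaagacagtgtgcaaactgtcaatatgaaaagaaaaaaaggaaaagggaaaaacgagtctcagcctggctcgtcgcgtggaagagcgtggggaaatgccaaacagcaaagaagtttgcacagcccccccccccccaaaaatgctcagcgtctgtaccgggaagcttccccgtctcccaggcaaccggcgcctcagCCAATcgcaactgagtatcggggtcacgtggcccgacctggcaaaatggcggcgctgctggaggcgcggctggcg
Alpk1: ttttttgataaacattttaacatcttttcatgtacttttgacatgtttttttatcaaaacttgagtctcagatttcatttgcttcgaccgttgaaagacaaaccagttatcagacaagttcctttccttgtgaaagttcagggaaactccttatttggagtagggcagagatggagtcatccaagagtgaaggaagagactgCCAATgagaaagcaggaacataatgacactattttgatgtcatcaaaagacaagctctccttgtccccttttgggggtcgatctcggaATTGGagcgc
Mfn1: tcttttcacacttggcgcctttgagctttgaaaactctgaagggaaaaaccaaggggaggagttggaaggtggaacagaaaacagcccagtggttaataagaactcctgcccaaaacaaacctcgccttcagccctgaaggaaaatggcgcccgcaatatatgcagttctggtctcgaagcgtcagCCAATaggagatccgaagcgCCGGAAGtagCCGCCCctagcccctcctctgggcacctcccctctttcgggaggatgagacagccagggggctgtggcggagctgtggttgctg

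The Zfp317 window holds a single TATA box. The Pex7 window holds CCAAT on both strands and a GC box read from the other strand. Intu holds a single CCAAT close to its start, and Alpk1 holds CCAAT on both strands. Mfn1 holds CCAAT, the ETS letters and a GC box, all before its start. These matches describe letters and not bound sites.

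Over the 187 RefSeq windows that overlapped members, CCGGAAG was found in 34.8%, against 17.8% of the 12269 windows in shared regions and 11.9% of all 20084 autosomal protein-coding windows. GGGCGG was less common in the member windows (55.1%) than in the shared ones (67.5%), and it was found in 47.0% of all. CCAAT was found in 43.9%, 37.4% and 38.1% of these windows. The NRF1 letters, GCGCATGC, were in 3.74% of the member windows, 5.30% of the shared ones and 3.55% of all. The CRE letters, TGACGTCA, were in 4.28%, 3.29% and 2.30%. The YY1 letters, AAGATGGCG, were in 4.81%, 2.89% and 1.83%. The TATA box stood in 6.95%, 6.25% and 12.7%. The AP-1 letters, TGANTCA, stood in 6.42%, 4.62% and 7.06%. The E-box of the MyoD type, CAGCTG, stood in 11.8%, 15.3% and 15.6%. These E-box letters were thus no more common at member promoters than at shared promoters. Member windows had a median GC content of 58.0%, below the 62.0% of windows in shared regions and near the 57.0% of all windows. The ratio of observed to expected CpG was similar in member and shared windows (0.786 and 0.778), and it was 0.586 in all windows. Windows of a gene can overlap, as both do at Zfp317, so they are not independent, and no test was made.

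The class changed with rank. The first 23 ranks held no promoter, and rank 24 was the promoter of Zfp317. Of ranks 1 to 10, 8 were short and away from promoters, and of ranks 11 to 50, 12 of 40 were. Promoters made up 40% of ranks 11 to 50, 52% of ranks 51 to 100, 64% of the next 100 ranks and 77% of the last 100. The short class was thus concentrated at the top of the list, and 4 of its 24 members ranked below 50.

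**Figure D1:**
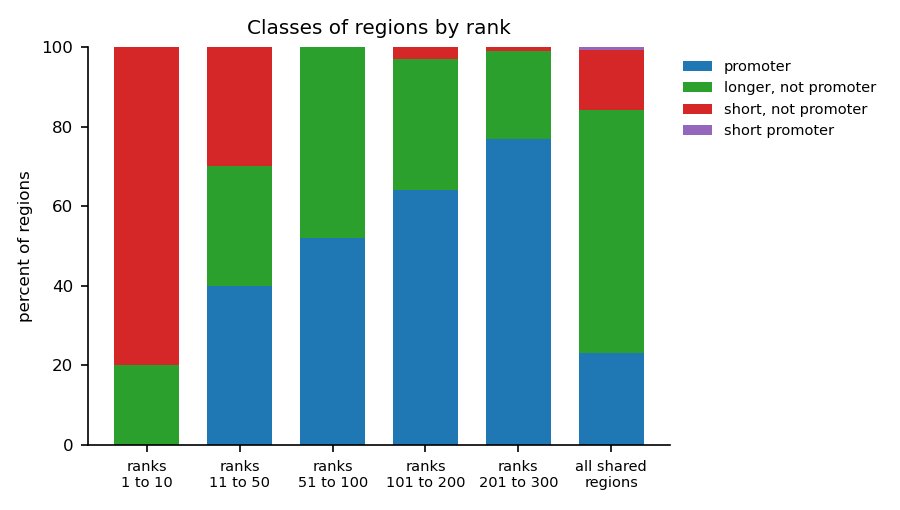
Percent of regions in each class by rank of the mean fold percentile, with all 52187 shared regions in the last bar. Short regions away from promoters fill 8 of ranks 1 to 10 and 1 of the last 100 ranks, where promoters reach 77%.

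The members were not the longest peaks. Their peak length, the median over libraries of the highest peak in the region, had a median of 937 bp (range 273 to 1335) against 968 bp for all shared regions (205 to 5707). No member exceeded 1500 bp, although 5446 other shared regions had 1501 to 2000 bp and 2052 had more. Promoter members had a median of 978 bp, and all longer promoters that were shared had 1311 bp. The 93 longer members away from promoters had 860 bp against 961 bp for their class, and the short members 458.5 bp against 492 bp. The median fold was 7.18 over the members and 3.98 over all shared regions, and the median scaled pileup was 2.56 and 1.16. Of the members, 103 (34.3%) were among the top 10% of shared regions by scaled pileup, so members were often high by pileup as well. The members were chosen by fold, so their higher standing by fold than by pileup follows from the rule.

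A peak that stands alone adds to the background of its own window of 10000 bp, so its fold can hardly exceed 10000 bp divided by its length. The members reached a median of 68.6% of this limit, against 41.03% for all shared regions. Promoter members had 70.0% against 66.4% for all longer shared promoters. Longer members away from promoters had 65.2% against 40.5% for their class, and short members 47.0% against 16.9%. The background implied by each deposited fold was compared with what the peak's own pileup would give if spread over the window. This own share had a median of 82.1% in promoter members, 78.6% in longer members away from promoters and 64.2% in short members, against 51.2% over all shared regions. In 9 of the 24 short members (37.5%) the implied background lay within 5% of the genome-wide level, close to the 38.9% of all short shared regions away from promoters, and this held for 0 members of the other classes. Isolation was also common, since 62.8% of promoter members had no other region within 10 kb, against 34.2% of all longer shared promoters, and the corresponding shares were 43.0% and 18.4% for longer regions away from promoters and 50% and 14.9% for short ones. These values share the pileup and background that enter the fold, and so they describe how the fold is built.

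**Figure D2:**
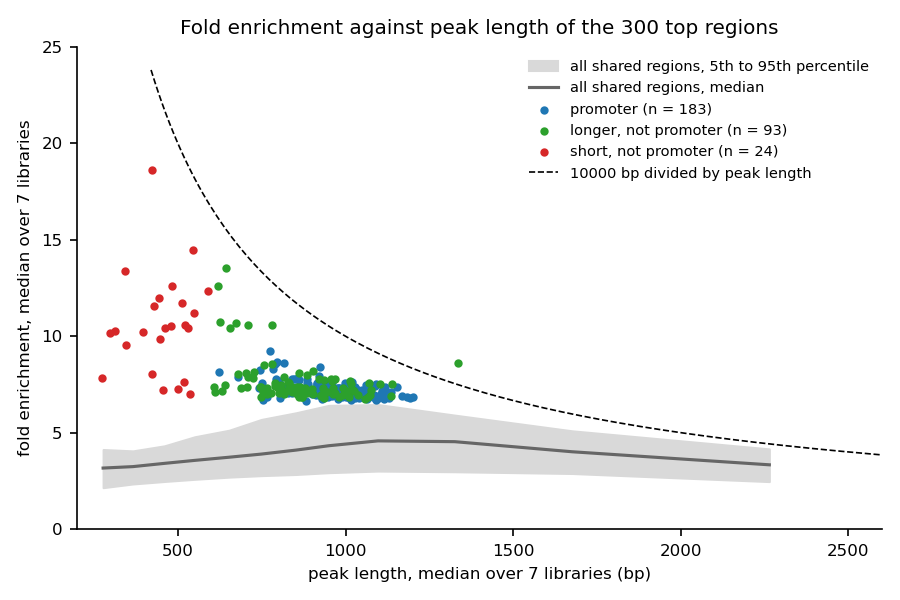
Median fold enrichment over 7 libraries against median peak length in bp for the 300 members by class, with the median and the 5th to 95th percentile of all shared regions by length (grey) and 10000 bp divided by the length (dashed). Most promoters and longer regions lie in a dense group near a fold of 7, some longer regions reach up to 13.5 and short regions up to 18.6, and 1 member lies above the dashed line.

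The single member above that line was the longest one, at 3109783 to 3111265 on chromosome 12, which is the outermost called peak of that chromosome at its start. Its peak length was 1042 to 1479 bp, and its fold was 8.63, 7.15, 13.2 and 8.77 in Nedd4L-cKO replicates 1 to 4 and 8.96, 7.61 and 6.86 in Nedd4L-WT replicates 1 to 3. Replicate 3 of Nedd4L-cKO stood apart with the highest fold and the shortest peak. The values of both genotypes overlapped.

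The first 10 regions had median folds of 11.2 to 18.6. Rank 1 lay within Chl1, a neural cell adhesion gene, at 103648958 to 103649383 on chromosome 6 and 138082 bp from its TSS. Its fold was 18.9, 18.4, 17.9 and 18.7 in Nedd4L-cKO replicates 1 to 4 and 18.4, 18.9 and 18.6 in Nedd4L-WT replicates 1 to 3, so that all 7 libraries lay close together. Its scaled pileup was 6.89, 6.72, 6.16 and 5.23 in Nedd4L-cKO and 5.74, 6.23 and 7.14 in Nedd4L-WT, which again overlapped. Rank 2 lay within Cdk8, the kinase of the Mediator complex, at 146260898 to 146261447 on chromosome 5 and 29648 bp from the TSS, with a fold of 14.8, 14.6, 14.3 and 14.3 and of 14.7, 14.5 and 14.3. Rank 3, at 5860259 to 5860907 on chromosome 3, was 281663 bp from the nearest TSS, that of the peroxisome biogenesis gene Pex2. Its peaks were 644 bp long in the median, so it counts as longer, and its fold was 13.4, 13.6, 13.5 and 13.5 and then 13.5, 13.3 and 13.6. The ranges of these 3 regions over the libraries did not overlap each other.

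Ranks 4 to 10 had folds between 8.77 and 14.3. Rank 4, on chromosome 18 at 73533286 to 73533632 and 39005 bp from Mex3c, varied more than the first 3, with 12.7, 14.3, 11.3 and 13.4 in Nedd4L-cKO and 12.8, 14.1 and 14.2 in Nedd4L-WT. Rank 5 lay at 109011566 to 109012192 on chromosome 11, 91217 bp from Axin2, a target and inhibitor of Wnt signalling, with folds of 12.2 to 12.9. Rank 6 lay within Gphn, which encodes the scaffold protein gephyrin, on chromosome 12 at 78350777 to 78351266, with folds of 12.6, 13.4, 12.6 and 12.9 in Nedd4L-cKO and 12.5, 12.3 and 12.6 in Nedd4L-WT, where the lowest Nedd4L-cKO value was just above the highest Nedd4L-WT value. Rank 7 lay within Zc3h7a on chromosome 16 at 11143813 to 11144406 (folds 11.8 to 12.7), and rank 8 on the same chromosome at 17222123 to 17222569, 11018 bp from Hic2 (9.80 to 13.1). Rank 9, on chromosome 8 at 15519689 to 15520212, was 462036 bp from Myom2, an M-band gene of muscle. Rank 10 lay within Lars2, the mitochondrial leucyl-tRNA synthetase gene, on chromosome 9 at 123461714 to 123462266, with folds of 10.2 to 11.7. None of the 10 overlapped the TSS of a gene of any type within 1 kb, and 5 of them lay within a protein-coding gene. The neighbouring genes are given for position only.

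**Figure D3:**
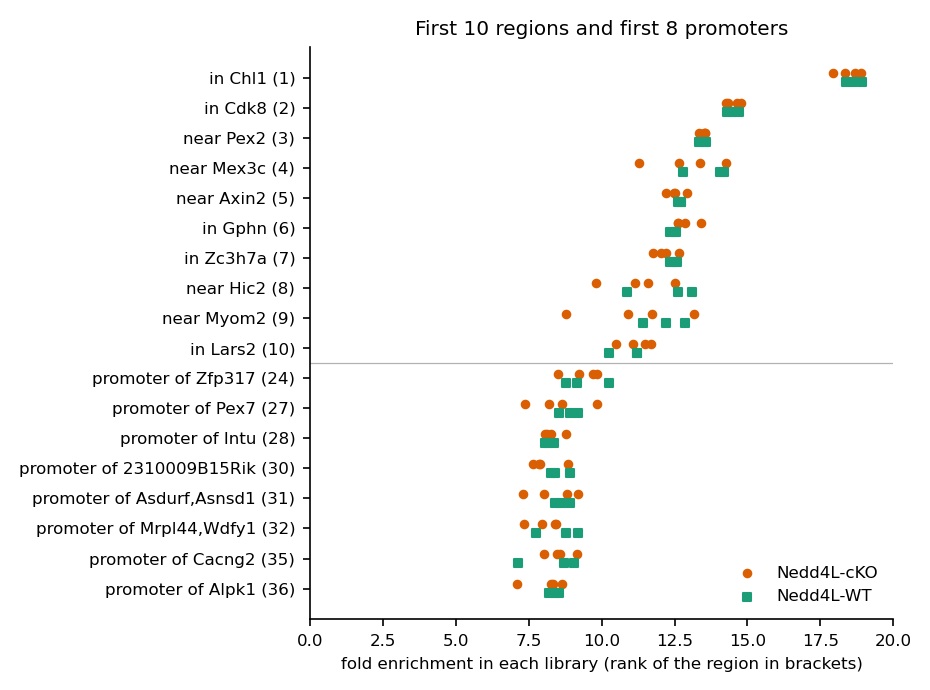
Fold enrichment in each of the 4 Nedd4L-cKO (circles) and 3 Nedd4L-WT (squares) libraries for ranks 1 to 10, labelled by the gene they lie in or near, and for the 8 promoter members with the highest ranks. Values of both genotypes overlap in each row except that of Gphn, and the promoters lie between 7.1 and 10.3.

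The borders of many short members hardly moved between libraries. Over the short members, the SD of the start over 7 libraries had a median of 3.61 bp and that of the end 4.70 bp. The class was not uniform, since the SD of the start ranged up to 278 bp and that of the end up to 23.3 bp. For all shared regions the medians were 87.8 and 88.3 bp. For short regions in general the medians were 93.9 and 92.3 bp, so a short peak did not as such have fixed borders. Short members were also higher than these, with a median scaled pileup of 2.09 against 0.689. The part of peak height in the steady borders was not tested. Promoter members had 50.9 and 46.5 bp, below the 64.9 and 65.5 bp of all longer promoters. Both borders varied by an SD of 10 bp or less in 45 shared regions (0.0862%), and 17 of these were members, 13 of them short and 4 longer. They included 9 of the first 10 ranks, the exception being the region near Hic2 with an SD of 11.4 bp at its end. The Chl1 region had the smallest values of all members, 0.951 and 0.756 bp. In contrast, its pileup varied by an SD of 0.16 on the log2 scale, close to the median of 0.15 over the members.

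**Figure D4:**
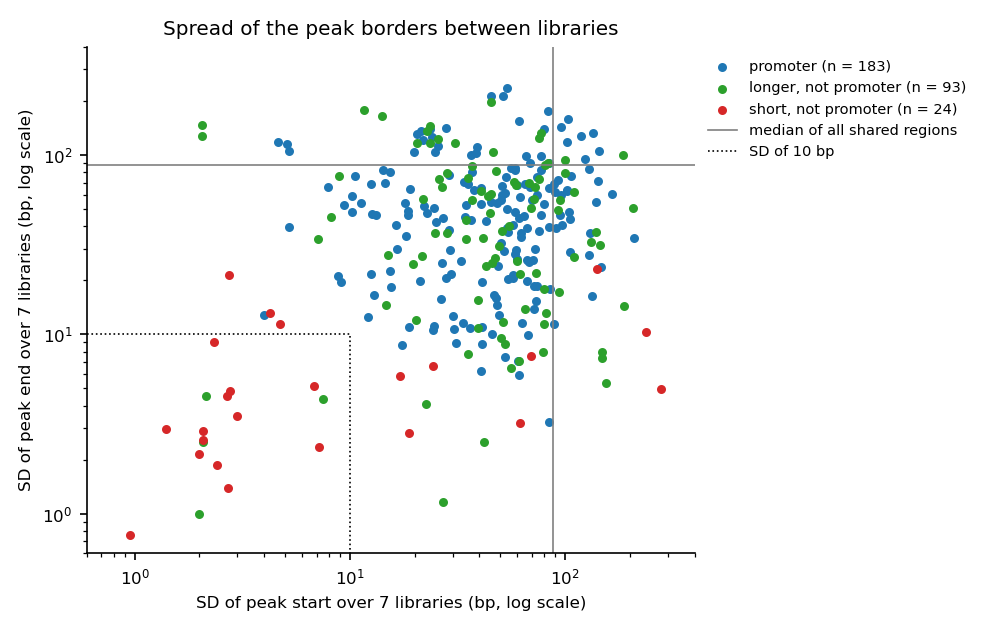
SD of the peak start against SD of the peak end over the 7 libraries in bp (both axes log) for the 300 members by class, with the medians of all shared regions as grey lines. In the dotted corner, at an SD of 10 bp or less for both borders, lie 13 short and 4 longer members away from promoters and 0 promoters.

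Many short members lay far from a TSS, and some of them lay near chromosome ends. Their median distance to a TSS was 95699 bp (range 9281 to 941993), and 12 of 24 were over 100 kb away, compared with 19.8% of all short shared regions away from promoters. Of the 24, 9 lay within a protein-coding gene (37.5%), against 52.9% of that class. Within 500 kb of the outermost called peak of a chromosome lay 4 of them (16.7%), while the share was 0.786% in the class and 0.728% over all shared regions. Rank 11 (chromosome 12, 120027983 to 120029043), rank 21 (chromosome 14, 124801496 to 124802067) and rank 25 (chromosome 16, 98106878 to 98107771) were themselves the outermost peak, and rank 23 (chromosome 6, 3201080 to 3201713) lay 150748 bp from it. These 4 were named after their values were seen. Chromosomes 16 and 18 held 4 short members each, and no other chromosome held more than 2. Of all 300 members, 10 (3.33%) lay within 500 kb of an outermost peak.

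The shortest member, at 86198921 to 86199231 on chromosome 14, was also the farthest from a TSS, 941993 bp from that of Diaph3. Its peaks were 252 to 293 bp long, and its fold was 6.50, 7.15, 7.22 and 9.30 in Nedd4L-cKO and 9.10, 9.14 and 7.85 in Nedd4L-WT. By distance to the nearest protein-coding gene, the farthest members were rank 300 (chromosome 15, 63035877 to 63037174), 738797 bp from Gsdmc, and rank 20 (chromosome 18, 85697846 to 85698314), 696501 bp from Neto1. Rank 20 had folds of 9.21 to 11.2, and rank 300 of 6.46 to 7.28. The peaks of rank 20 were 422 to 464 bp long, and those of rank 300 were 977 to 1213 bp long.

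The 93 longer members away from promoters had a median distance of 34764 bp to a TSS, near the 36633 bp of their class. Their median distance to the body of a protein-coding gene was 10811 bp, close to the 11126 bp of the short members. Of them 31 (33.3%) lay within a protein-coding gene, against 53.4% of the class. At the TSS of a gene of another type lay 13 (13.98%), against 6.64% of the class. Among all 117 members away from promoters, 8 (6.84%) were at the start of a long noncoding RNA and 6 at that of a pseudogene, of which 3 are annotated as transcribed. The corresponding shares of all shared regions away from promoters were 4.81% for long noncoding RNAs, 0.692% for pseudogenes and 0.136% for transcribed ones. These members lie within 1 kb of annotated gene starts that the promoter definition left out, and transcription from them was not examined.

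The highest of this class after ranks 3 and 5 was rank 12, within Mdga2 on chromosome 12 (67059102 to 67059901), with folds of 9.98 to 11.8. Rank 13 lay at 195241199 to 195242047 on chromosome 1, 129753 bp from the outermost peak and 64480 bp from Cr2, with folds of 10.0 to 12.7. Rank 14 lay on chromosome 17 at 36231161 to 36232074, 25772 bp from Rpp21, a subunit of RNase P, with folds of 9.04 to 12.5. Rank 15 lay within Cmss1 and Filip1l on chromosome 16 (57391037 to 57391765), with folds of 10.1 to 11.1. Of these 4, rank 15 had borders with an SD of 10 bp or less, namely 7.52 and 4.35 bp.

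The promoter members had folds between 6.66 and 9.23 in the median over libraries, where the lower end follows from the member rule. None of them had a median peak length over 1201 bp. The promoter of Zfp317, a zinc finger gene, came first (chromosome 9, 19621628 to 19622617). Its fold was 9.23, 8.50, 9.85 and 9.71 in Nedd4L-cKO and 8.78, 9.16 and 10.3 in Nedd4L-WT, and its nearest other region lay 761958 bp away, the largest such distance among the members. The promoter of Pex7, which encodes the receptor that brings PTS2 proteins into peroxisomes, followed (chromosome 10, 19907012 to 19907904) with 9.85, 7.38, 8.65 and 8.19 and then 8.92, 9.18 and 8.55. The promoter of Intu, a planar cell polarity effector needed for cilia, had the smallest spread of the 8, with 8.14, 8.25, 8.05 and 8.79 and then 8.15, 8.06 and 8.35 (chromosome 3, 40540513 to 40541274). Both genotypes overlapped at all 3.

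The other promoters among the first 8 were those of 2310009B15Rik (folds 7.64 to 8.91), Asdurf and Asnsd1 (7.29 to 9.19), Mrpl44 and Wdfy1 (7.35 to 9.21), Cacng2 (7.13 to 9.16) and Alpk1 (7.1 to 8.66). Mrpl44 encodes a protein of the mitochondrial ribosome, and Wdfy1 starts in the opposite direction within the same region. Such starts on both strands were present in 17 of the 183 promoter members (9.29%) and in 9.16% of all longer promoters. Mfn1, whose product fuses mitochondria and whose window is printed above, ranked 48 with folds of 7.69, 7.86, 7.67 and 7.77 in Nedd4L-cKO and 8.06, 7.02 and 9.19 in Nedd4L-WT.

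Gene lists were counted at the promoters. Of 13113 protein-coding genes with a promoter region called in all 7 libraries, 1.53% had a member at the promoter. Among zinc finger genes, which encode DNA-binding proteins, it was 17 of 350 (4.86%), among them Zfp317, Zscan22, Zfp709, Zkscan8 and Zfp2. RNA polymerase and Mediator genes had 4 of 57 (7.02%), namely Med23, Polr1b, Med11 and Med19. Genes of the mitochondrial ribosome had 4 of 77 (5.19%), which were Mrpl44, Mrps14, Mrps17 and Mrpl33. Respiratory chain genes had 2 of 82 (Cox7c and Ndufa12), translation factors 2 of 65 (Eef1e1 and Eef1akmt2), and the proteasome 1 of 37 (Psmd12). Splicing genes had 1 of 64 (Snrpe), heat shock genes 1 of 68 (Hspa12a) and ribosomal proteins 0 of 75. The symbols searched for histones matched 0 genes.

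Folds of the listed promoter members are given as values only, since the members were chosen by fold. Med23, a Mediator subunit, had 8.31, 7.70, 7.59 and 7.77 in Nedd4L-cKO and 7.52, 7.82 and 7.79 in Nedd4L-WT. Snrpe, a core protein of the spliceosome, had folds of 7.39 to 7.83, and Cox7c, a subunit of cytochrome c oxidase, of 7.14 to 7.85. Polr1b, a subunit of RNA polymerase I, ranged more widely from 6.43 to 8.63. Zscan22 had folds of 7.13 to 9.32, Zfp709 of 7.09 to 8.01 and Zfp2 of 6.96 to 7.45. The genotypes overlapped in each of these promoters, while they did not at Zkscan8, whose values are given with the genotype tests.

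Of 29 myogenic and MuSC genes and 18 AP-1 and immediate early genes, all had an open promoter region in all 7 libraries, and 0 had a member there. At the share of 1.53% over all open genes, lists of this size would each hold fewer than 1 member, so nothing is read from these counts. Their median percentile by fold was 11.2 and 6.12, far below the 72.0 of all open protein-coding genes. By pileup they were not low, with median scaled pileups of 2.58 and 3.37 against 2.37 for all. Their regions were longer, 1528 and 1850.5 bp in the median against 1313 bp, and lay on a background of 7.28 and 10.9 times the genome-wide level against 4.09 times. For the mitochondrial ribosome, with the highest median percentile (91.5), the length was 1110 bp, the background 3.15 times and the pileup 2.21. The part of length and background in these percentiles was not tested. Of the 300 regions with the highest mean percentile by pileup, 14 (4.67%) were members, and their median length was 1526 bp.

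**Figure D5:**
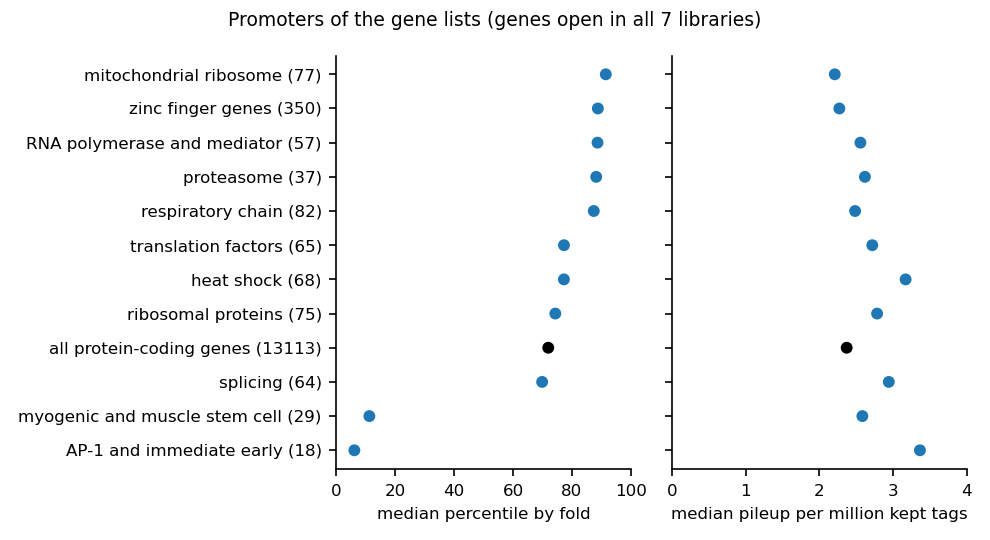
Median percentile by fold (left) and median scaled pileup (pileup per M kept tags, right) of promoter regions open in all 7 libraries, by gene list with the number of genes in brackets and all protein-coding genes in black. Myogenic and AP-1 genes lie at 11.2 and 6.12 by fold, although their pileup of 2.58 and 3.37 is above that of all genes.

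Libraries differed in which regions they placed at the top. Of each library's own 300 highest regions, 56.0 to 59.3% were members, and 639 other regions were in the own top 300 of at least 1 library. In the own top 300 of every library were 56 members, of which 19 were short, 17 longer and 20 promoters. Every library thus placed there 19 of the 24 short members and 20 of the 183 promoter members. The members were chosen by these same fold ranks, and short members had a median fold of 10.4 against 7.1 for promoter members. Higher folds clear the cut of each library more easily, so whether libraries agreed more on short regions was not tested. Another 9 members were in the own top 300 of no library and entered through a steady rank. Within the own lists, promoters made up 51.8% (range 45.3 to 57.0) in Nedd4L-cKO and 50% in Nedd4L-WT (range 48 to 51.7), and short regions 12 to 13.3% in all libraries.

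By scaled pileup, members varied between libraries by a median SD of 0.15 on the log2 scale, against 0.18 for all shared regions. Promoter members were no steadier than all longer shared promoters (0.1454 and 0.1435). Longer members away from promoters had 0.170 against 0.190 for their class, and short members 0.171 against 0.213. Among the members, the largest SD, 0.46, belonged to a region within Nuf2, a kinetochore gene, on chromosome 1 (169517446 to 169518441). Its scaled pileup was 2.65, 2.13, 1.72 and 1.87 in Nedd4L-cKO and 1.09, 1.47 and 2.57 in Nedd4L-WT. Next came a region within Nrap, a gene of the myotendinous junction, on chromosome 19 (56373728 to 56374852), with 2.07, 1.04, 2.37 and 2.36 and then 2.49, 1.84 and 2.04. The third lay within Ofcc1 on chromosome 13 (40060663 to 40061975) with 1.66 to 2.85, and the region near Myom2 at rank 9 came next with 1.37 to 2.66. The genotypes overlapped in all 4. The borders of the region near Myom2 nevertheless stayed fixed, with peaks of 507 to 518 bp in every library. The smallest SD, 0.06, was found for a region 33776 bp from Vmn2r82 on chromosome 10 (79321709 to 79322815; 1.32 to 1.46) and for one within Tango6 on chromosome 8 (106717832 to 106718723; 1.48 to 1.68).

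At the threshold the fold differed little between members and the next regions. Ranks 298 to 300 had mean percentiles of 98.7115, 98.7090 and 98.7085, and included the promoter of Triqk. Ranks 301 to 303, just outside, had 98.7052, 98.7041 and 98.6972, and included the promoters of Cd320 and Marchf8. Their median folds, 6.81, 7.01 and 6.74 inside and 6.76, 6.83 and 6.75 outside, overlapped.

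Whether Nedd4L deletion changed these regions was tested with limma over all 52187 shared regions, on the fold rank as normal scores, on log2 scaled pileup and on log2 called length. The background rate of calls was 0% in each of the 3 fits, and 0 members passed a Benjamini-Hochberg adjusted p of 0.05 in limma. At an unadjusted limma p under 0.05 there were 11 members by fold rank (3.67%) against 3.97% of all regions, 2 by pileup (0.667%) against 3.11%, and 5 by length (1.67%) against 3.82%. By fold rank 7 of the 11 were higher in Nedd4L-cKO (2.33%) against 1.78% of all regions, and 4 were lower (1.33%) against 2.19%. By pileup 0 members were higher against 0.132%, and both were lower against 2.97%. By length 2 members were higher against 2.21%, and 3 were lower (1.00%) against 1.62%. These counts of members were small and their shares were not compared by a test, so no direction is read from them.

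Counts of members whose genotypes did not overlap were read in the same way. Every Nedd4L-cKO library was above every Nedd4L-WT library by fold rank, the percentile within the library, in 7 members (2.33%) against 2.67% of all regions, and below in 8 (2.67%) against 2.09%. By pileup 9 members (3.00%) had every Nedd4L-cKO library below against 4.22% of all regions, and 0 had it above against 0.241%. By length 7 members (2.33%) had it above against 2.69%, and 4 (1.33%) had it below against 1.95%. These counts were small as well, and no direction is read from them. Fold percentiles near 100 have little room to differ, and the fit used normal scores instead. In simulated normal scores, 200 regions drawn from all 52187 shared regions were shifted. The test recovered 0 of 200 shifts of 1 unit, 108 (54.0%) of 1.5 units and 161 (80.5%) of 2 units. The simulated scores were not ranked again and the shifted regions were not chosen among the members. These rates therefore do not give the shift that was detectable in members.

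Members with the lowest unadjusted p are given with their values. A region within Zfhx3 on chromosome 8 (108790395 to 108791392) had folds of 7.75, 7.07, 7.84 and 7.68 in Nedd4L-cKO against 7.02, 6.76 and 7.11 in Nedd4L-WT, which overlapped. Its percentiles did not overlap, at 99.5 to 99.9 against 98.9 to 99.4, and its normal score was higher by 0.49 (SE 0.178) with an adjusted p of 1.00 in limma.

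In the other direction, the promoter of the zinc finger gene Zkscan8 (chromosome 13, 21530671 to 21531570) had a fold of 7.02, 7.002, 7.15 and 7.06 in Nedd4L-cKO and 7.81, 7.92 and 7.93 in Nedd4L-WT. The genotypes did not overlap in fold or in percentile, and the normal score differed by -0.45 (SE 0.174) with an adjusted p of 1.00 in limma. A region on chromosome 16 (93246663 to 93247518), 356297 bp from Setd4, had folds of 7.42, 5.94, 6.89 and 6.8 in Nedd4L-cKO against 7.38, 7.69 and 8.03 in Nedd4L-WT, which overlapped. Its percentiles did not overlap, at 94.9 to 99.5 against 99.7 to 99.8, and its normal score differed by -0.61 (SE 0.242) with an adjusted p of 1.00 in limma.

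By pileup the lowest unadjusted p belonged to rank 17, a short member on chromosome 13 (9834211 to 9834625), 68890 bp from Zmynd11. Its scaled pileup was 1.53, 1.58, 1.48 and 1.44 in Nedd4L-cKO and 1.91, 2.03 and 2.02 in Nedd4L-WT, a difference of -0.40 on the log2 scale (SE 0.121) with an adjusted p of 1.00 in limma. Its fold was also lower, at 9.23, 9.53, 9.50 and 9.48 against 12, 12.7 and 11.9, so the genotypes did not overlap in either measure. By length the lowest p was that of a region within Cbwd1 on chromosome 19 (24960910 to 24962055), which covered 1127, 1114, 1105 and 1104 bp in Nedd4L-cKO and 1026, 817 and 796 bp in Nedd4L-WT, higher by 0.35 on the log2 scale (SE 0.104) with an adjusted p of 0.999 in limma. None of these differences passed the correction over all regions.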

How the data were processed

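The authors made ATAC-seq libraries from 5000 sorted MuSCs each. Reads were trimmed with Trimmomatic 0.39, aligned to mm10 with BWA-MEM 0.7.17, filtered on mapping quality with SAMtools and freed of duplicates with Picard 2.26.3. Per the file headers, peaks were called per library with MACS2 2.2.7.1 in broad mode without a control, with a shift of -100 bp, an extension of 200 bp, q cutoffs of 0.05 (narrow) and 0.1 (broad), and a local background over 10000 bp. The deposited pileup is a signal (coverage not scaled to depth), and the deposited fold enrichment is a ratio to the local background. In broad mode both are means over the called peak. The authors gave the p-value and q-value as -log10, and the score deposited by the authors in the peak lists was not used. Paired-end mode was off in the file headers, so single ends of 151 bp were piled up, and 1 tag was kept per position and strand, which limits a pileup to 400.

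Members, classes and gene lists were chosen with earlier results of these data known. A TSS came from the RefSeq promoter table or from RefSeq spans on GRCm38 with GENCODE strands, for 20228 of 20661 autosomal protein-coding genes (97.9%). No GRCm39 coordinates were used. The implied background is the pileup plus 1, divided by the fold, minus 1. Regions were tested with limma 3.58.1 in R 4.3.3 (lmFit and eBayes, Benjamini-Hochberg adjustment over 52187 regions) with all 7 libraries and no covariate or pseudocount. The fit was tested on simulated data. The study gives separate mice for the 7 libraries, and 0 peaks were identical in any pair of them. Merging and plots used Python 3.11.15 (pandas 2.3.3, numpy 2.4.6, matplotlib 3.10.9, scipy 1.17.1).

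Named regions follow a rule: the 10 highest ranks, the 8 highest promoters, the 6 highest longer regions away from promoters, the 4 largest and 2 smallest SDs of log2 pileup, the lowest unadjusted p per fit (2 in each direction by fold rank), 3 regions on each side of the threshold, the longest and shortest, 10 promoters of the gene lists, and the 2 farthest from a gene. Of these, 1 region is not reported here, nor is 1 list of cell type markers. Alternatives covered the ranking measure, the number of regions, a -log10 q of at least 5, the TSS and length definitions, X and Y, a replicate block, trend and robust options, a covariate of log2 kept tags, other scales, and each library left out.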

Additional observations from a re-analysis of the deposited data

Results flagged for a closer look

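In the 4 Nedd4L-cKO libraries, 13 summary measures and 88 measures on the 44 named regions were examined for a library far from the rest, with Dixon's test at the 95% level, which divides the gap to the next library by the whole range. Of these, 4 passed, a rate below the about 1 in 20 that chance gives for independent measures. The measures share regions and libraries, so that comparison does not settle whether chance gave the 4. Each time the library was Nedd4L-cKO replicate 1. Its median fold over the members was 7.479, against 7.08 to 7.103 in the other 3, but below the 7.57 of Nedd4L-WT replicate 3. Its fold was 13.352 in the region near Pex2, against 13.5 to 13.6 in the others, and 9.23 in the region near Zmynd11, against 9.48 to 9.53. Its scaled pileup at the promoter of Alpk1 was 3.02, against 2.29 to 2.42.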

How the results depend on the processing

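Ranking by pileup gave 65.0% promoters, 3.67% short regions away from promoters and a median length of 1526 bp, and the highest median percentile gave 9.33% short regions. The 150 highest regions gave 48.7%, 14% and 864.5 bp, and the 600 highest 68.2%, 4.50% and 979 bp. Counting the TSS of every gene type gave 65.3% promoters. Short regions came to 5.33% at a limit of 500 bp and 33.7% at 1000 bp, and the median merged length was 1102.5 bp. Leaving out each library and choosing anew gave 58.7 to 61.7% promoters, 8.0 to 8.67% short regions and 922.75 to 944 bp. The other alternatives moved these values by less than 1 SD over the libraries' own top 300.

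In all 35 alternatives of the 3 limma fits 0 members were called (13 by fold rank, 12 by pileup, 10 by length). With the library from lane 2 left out, 0 members were called as well. With each library left out in turn, the count of members called ranged from 0 to 0. The replicate block also called 0 members in each fit, and the numbers only name the libraries: deviations of same-numbered libraries correlated with r between -0.12 and 0.03, and 1 of 3 Nedd4L-WT libraries correlated best with its own number. Under trend and robust options, limma called 1 region outside the members by length. Between 0 and 15 members had an unadjusted limma p under 0.05 in these alternatives.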

Other observations

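With chromosomes X and Y included, 17 of the 300 highest regions lay on X, and 283 of the 300 autosomal members remained among the 300. Each library also had 2 peaks on the mitochondrial genome with pileups of up to 293 to 317, more than any autosomal region, and a fold of up to 1.74 to 1.75, below every member.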
